A study of Mus musculus with 2 samples.

Results

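The fibroblast growth factor (FGF) genes, their receptors and the genes that respond to them were described in ureters dissected from mouse embryos of stage E14.5, in embryonic days, by RNA hybridised to 2 two-colour Agilent arrays. Probes were taken where the array design names the gene Fgf followed by a number, Fgfr1 to Fgfr4, Fgfrl1, Spry1, Spry2, Spry4, Spred1, Spred2, Dusp4, Dusp6, Etv1, Etv4 or Etv5. This gave 56 of 39429 probes, for 37 genes. Each array compared embryos of genotype Tbx18(cre/+);Smad4(fl/fl), called Smad4cKO, with controls of genotype Tbx18(+/+);Smad4(fl/+), all of the NMRI strain. Array 1 held a female pair with Smad4cKO RNA in the green dye, and array 2 held a male pair with Smad4cKO RNA in the red dye. Cre made from the Tbx18 locus acts in the ureteric mesenchyme and leaves the urothelium with its Smad4 alleles. The controls carry 1 floxed Smad4 allele and lack Cre, so the Tbx18 allele with Cre and the loss of Smad4 cannot be told apart. The labels do not give the number of embryos behind each RNA, so errors measure only spread between these 2 arrays. Each standard error (SE) rests mostly on that spread pooled over all tested genes.

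FGFs are mostly secreted proteins that bind receptor tyrosine kinases together with heparan sulphate on the cell surface, or with Klotho proteins for the endocrine members. The activated receptors signal through RAS and the kinases MEK and ERK, which switch on the ETS factors Etv1, Etv4 and Etv5 and a set of inhibitors that damp the same signal, among them the Sprouty, SPRED and dual-specificity phosphatase genes. In the urinary tract, FGF7 and FGF10 from mesenchyme act on FGFR2 of the epithelium. Spry1 restrains outgrowth of the ureteric bud, and Etv4 and Etv5 also act downstream of the receptor RET there.

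Every ratio is the channel labelled Smad4cKO over the channel labelled control, by the dye labels, on a log2 scale. The direction is not settled by the targeted loci. Smad4 gave -0.69 on array 1 and -0.14 on array 2, with -0.31 and -0.49 from a second probe, and the labels do not say which exons the deletion removes, so whether these probes lie in the deleted part is not given. Tbx18 gave 0.07 and 0.81. On both arrays the ratio in the authors' deposited table is the inverse of this one, although the sample titles put Smad4cKO first, so taken by its titles that table has every direction below turned round. Were the dyes of both arrays mislabelled, brighter and dimmer would change places below and sizes and tests would stay. In the 4 channels, 68.3% to 70.3% of spots were well above background. All 16 urothelium markers and all 8 smooth muscle markers looked at were measured. In whole ureters, fewer cells of a type and less RNA per cell cannot be told apart.

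Of the 37 genes, 29 had a probe that was well above background on both arrays in at least 1 labelled group, which is what a test required. Among these 29, Fgf18 was dimmer in labelled Smad4cKO by about 2-fold, Fgf5 and Fgf9 had lower ratios of smaller size, and Fgfr2, Fgfr3, Fgfr4 and Fgf10 had higher ones. Limma called 0 of the 29 genes at an adjusted p threshold of 0.05 over all 21238 genes tested, where it called 0% of all genes brighter and 0.00471% dimmer. At an unadjusted p under 0.05 it held 4 brighter genes (Fgf10, Fgfr2, Fgfr3 and Fgfr4) and 3 dimmer genes (Fgf5, Fgf9 and Fgf18). The same threshold held 2.14% of all genes brighter and 2.97% dimmer, which would be 0.621 and 0.86 of 29 genes. A fold rule, which is no test, required each array to reach 1.5-fold with the same sign. It held 0 brighter genes and 1 dimmer gene, Fgf18, against 0.49% and 0.523% of all genes, and 1.25% of all genes passed 1.5-fold in opposite directions. A total of 12 genes were brighter on both arrays at any size and 8 were dimmer, against 19.9% and 19.8% of all genes. The other 9 changed sign between the arrays, as did 60.3% of all genes.

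**Figure D1:**
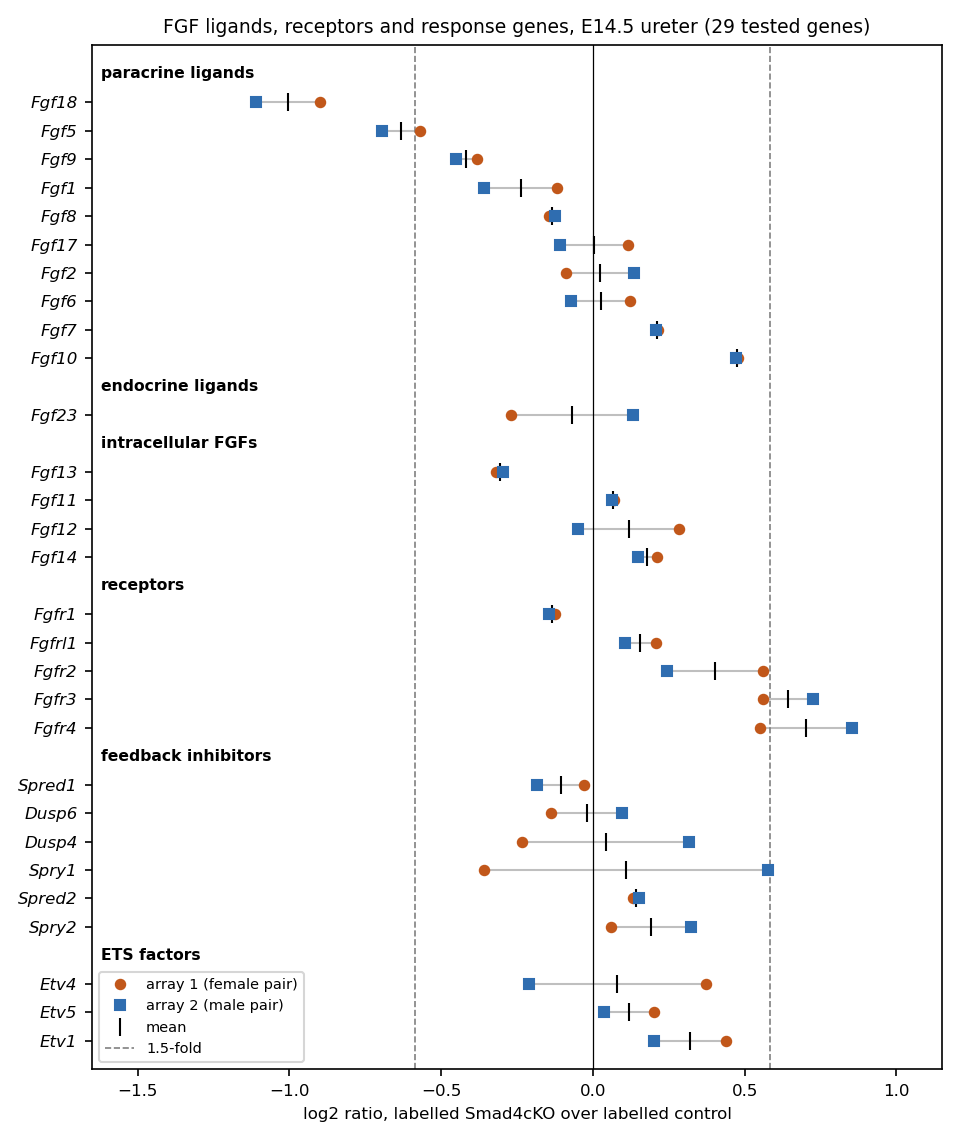
Log2 ratio of labelled Smad4cKO over labelled control for each of the 29 tested genes, grouped by role, with a circle for array 1, a square for array 2 and a black tick for their mean. Fgf18 is the gene with both points past the dashed 1.5-fold line, and Spry1 spans the widest range, with -0.36 on array 1 and 0.58 on array 2.

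The promoters of the 4 genes with the largest mean ratios are shown as the 250 bases before the annotated start, 5′ to 3′ (RefSeq, build GRCm38.p6), with SMAD motifs in capitals. SMAD4 binds DNA in complexes with receptor-activated SMADs, and the motifs searched on both strands were the SMAD box CAGAC and the GC-rich SMAD motif GGCGCC. The stretches are chr11:33147401-33147650 (minus strand) for Fgf18, chr5:98253934-98254183 (plus strand) for Fgf5, chr5:33721474-33721723 (plus strand, the upstream of 2 annotated starts) for Fgfr3 and chr13:55152568-55152817 (plus strand) for Fgfr4.
Fgf18: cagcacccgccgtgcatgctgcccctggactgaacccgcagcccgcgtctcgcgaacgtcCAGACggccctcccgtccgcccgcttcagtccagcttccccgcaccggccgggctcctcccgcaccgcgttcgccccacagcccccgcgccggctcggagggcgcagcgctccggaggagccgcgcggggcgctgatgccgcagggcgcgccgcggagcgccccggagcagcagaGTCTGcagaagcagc
Fgf5: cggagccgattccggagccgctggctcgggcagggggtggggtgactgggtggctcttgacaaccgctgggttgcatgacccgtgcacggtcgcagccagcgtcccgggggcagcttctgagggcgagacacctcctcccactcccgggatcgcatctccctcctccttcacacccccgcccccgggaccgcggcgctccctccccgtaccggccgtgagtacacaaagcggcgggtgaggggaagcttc
Fgfr3: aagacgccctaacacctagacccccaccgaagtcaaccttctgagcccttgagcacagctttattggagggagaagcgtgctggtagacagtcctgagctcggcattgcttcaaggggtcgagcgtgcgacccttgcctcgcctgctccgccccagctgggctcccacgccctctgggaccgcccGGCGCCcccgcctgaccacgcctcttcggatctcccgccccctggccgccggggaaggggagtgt
Fgfr4: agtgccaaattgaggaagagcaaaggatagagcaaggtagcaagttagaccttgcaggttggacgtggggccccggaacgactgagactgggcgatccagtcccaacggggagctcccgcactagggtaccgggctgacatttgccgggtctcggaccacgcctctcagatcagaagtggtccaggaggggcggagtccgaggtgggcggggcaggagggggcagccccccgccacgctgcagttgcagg
The Fgf18 stretch holds 2 copies of the SMAD box and the Fgfr3 stretch 1 copy of the GC-rich motif, and neither set of letters is found in the Fgf5 and Fgfr4 stretches. Promoters of 27 of the 37 genes could be matched. The SMAD box was in 10 of these 27 genes, or 27.8% of their 36 promoters, against 42.2% of all 32851 promoters. The GC-rich motif was in 6 genes, or 19.4% of their promoters, against 9.59% of all. The ETS motif CCGGAAGT was in 1 gene, Fgfrl1, or 2.78% of the promoters, against 2.88% of all. The 4 stretches are rich in G and C, from 64% for Fgfr4 to 77.2% for Fgf18, against a median of 52.4% over all promoters. A match of letters is a description and not a binding site.

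Among the paracrine ligands, which act on neighbouring cells, 10 of 15 genes could be tested. Fgf18 encodes a ligand of the FGF8 subfamily that regulates cartilage, bone and lung growth. Its probe at chr11:33017440-33017499 (mm9, minus strand; its exon was not annotated here) gave normalised intensities of 5099 and 5572 in the channels labelled Smad4cKO on arrays 1 and 2, against 9518 and 12036 in those labelled control. The Smad4cKO channel was the dimmer on both arrays, as for 19.8% of all genes. The log2 ratios were -0.90 and -1.11 (mean -1.01, SE 0.14, n = 2 arrays), which is 2.01-fold dimmer, with limma adjusted p = 0.136. The test calls Fgf18 only under some settings, with limma adjusted p = 0.0118 from Feature Extraction's processed signals, 0.0355 from the authors' deposited table and 5.15e-08 when the prior variance was robust and followed intensity. Those settings called 0.763%, 0.363% and 1.92% of all genes dimmer, against 0.00471% with the main one. In the authors' deposited table the signed folds were 1.89 and 2.14, control over Smad4cKO by the dye labels.

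A second Fgf18 probe gave -1.10 on array 1 and -0.88 on array 2. The pair is not independent, since they share 26 bases at chr11:33017474-33017499 (mm9, minus strand), printed here because both values rest on them.
Shared stretch of the Fgf18 probes: acgaggaaactgcgagaaaccaaagt
The larger difference lay on array 2 with the first probe and on array 1 with the second. The other members of the FGF8 subfamily gave small ratios. Fgf8, a ligand required for nephron formation, gave -0.15 and -0.13 at normalised intensities of 214 and 215 in labelled Smad4cKO, against 237 and 234 in labelled control. Fgf17 gave 0.12 and -0.11, with a changed sign. Of the 3 Fgf8 probes, 2 were not well above background on both arrays in either group.

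Fgf5, a ligand known for ending the growth phase of the hair cycle, had normalised intensities of 496 and 446 in labelled Smad4cKO, against 736 and 722 in labelled control. Each array had the lower value of Fgf5 in the Smad4cKO channel. Its log2 ratios of -0.57 and -0.69 (mean -0.63, SE 0.13, n = 2, limma adjusted p = 0.283) lie just short of 1.5-fold on array 1, where the line is at 0.585. With processed signals the log2 ratios of Fgf5 were -0.70 and -0.79, and it passed the 1.5-fold rule. Fgf4 and Fgf6 belong to the same subfamily. Fgf4 was not well above background in any channel, and Fgf6 changed sign, with 0.12 and -0.07.

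Fgf9, an epithelial and mesothelial ligand that maintains nephron progenitors, had 840 and 740 in labelled Smad4cKO, against 1095 and 1012 in labelled control. Each array showed a lower Smad4cKO channel, at -0.38 and -0.45 (mean -0.42, SE 0.13, n = 2, limma adjusted p = 0.633). Fgf16 and Fgf20, of the same subfamily, were not well above background in any channel. Fgf1, which binds all FGF receptors, gave -0.12 and -0.36, and Fgf2, a ligand stored in the matrix, gave -0.09 and 0.14. Fgf2 was dim, at 160 and 165 in labelled Smad4cKO, against 170 and 150 in labelled control.

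Fgf10 and Fgf7, whose products act on FGFR2 of the epithelium, had positive ratios on both arrays. Fgf10, the mesenchymal ligand required for lung and limb development, had 560 and 570 in labelled Smad4cKO, against 402 and 411 in labelled control. Its log2 ratios of 0.48 and 0.47 (mean 0.48, SE 0.13, n = 2, limma adjusted p = 0.504) are means of 10 spots per array, whose spot-to-spot SD was 0.067 on array 1 and 0.078 on array 2. With a robust prior variance that followed intensity the limma adjusted p of Fgf10 was 0.0224, from the same ratios. Fgf7, its close relative also known as keratinocyte growth factor, had 7129 and 8535 in labelled Smad4cKO, against 6142 and 7393 in labelled control, or 0.21 on both arrays. The adjusted p of Fgf7 was 1. On each array its Smad4cKO channel was the higher, and both of its channels were brighter on array 2 than on array 1. Of their subfamily, Fgf22 was not well above background in any channel, and Fgf3 was well above background on array 2 but not on array 1.

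**Figure D2:**
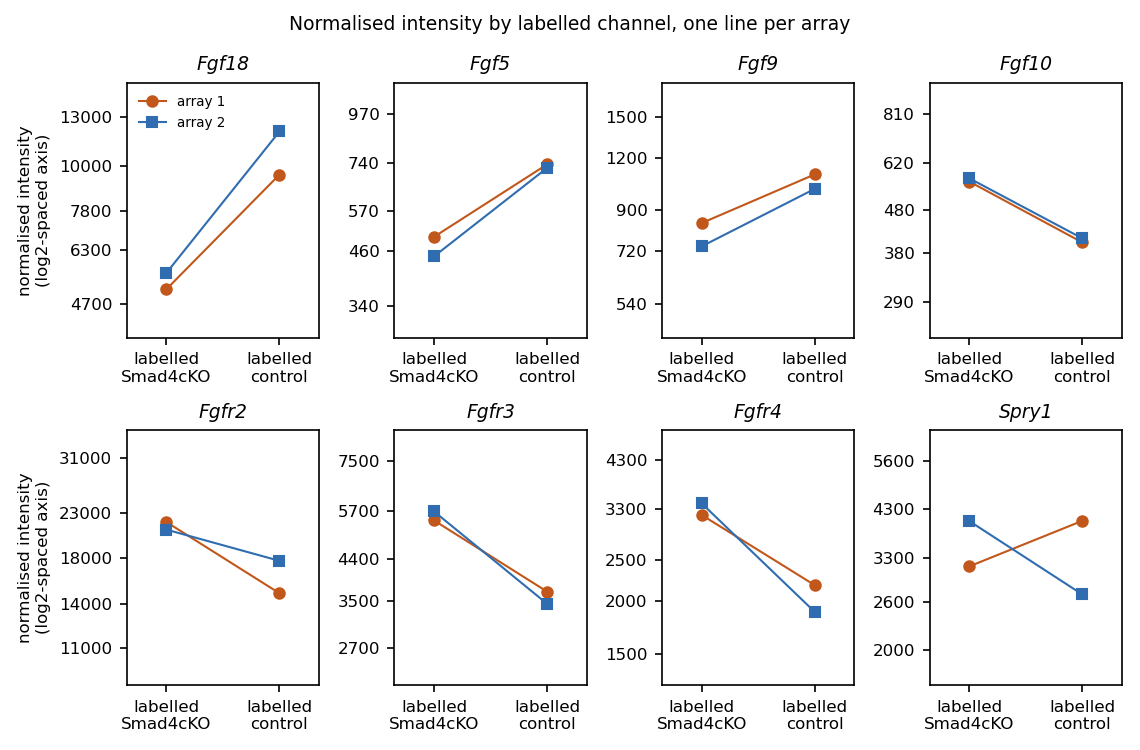
Normalised intensity (log2-spaced axis, each panel spanning the same fold range) of 8 genes in the channel labelled Smad4cKO and the channel labelled control, with a line for each array. Lines run up to the control for Fgf18, Fgf5 and Fgf9 and down for Fgf10 and the receptors, and the lines of Spry1 cross.

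Of the endocrine ligands, which need Klotho coreceptors and act at a distance, Fgf15 and Fgf21 were not well above background in any channel. The probes of Fgf23, the phosphate-regulating hormone of bone, disagreed in detection. The probe at chr6:127030758-127030817 (mm9) had 4204 and 4242 in labelled Smad4cKO, against 5069 and 3873 in labelled control, with ratios of -0.27 and 0.13. The probe at chr6:127031289-127031348 was not well above background in any channel. The files do not show which of them reports Fgf23 transcript.

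The intracellular FGFs, Fgf11 to Fgf14, are not secreted and are known for binding voltage-gated sodium channels in neurons. All 4 were tested. Fgf13 had log2 ratios of -0.32 and -0.30 (mean of -0.31, with SE 0.13, n = 2, and limma adjusted p = 1), with 326 and 335 in labelled Smad4cKO, against 407 and 411 in labelled control. Fgf14 gave 0.21 and 0.15 and Fgf11 gave 0.07 and 0.06. Fgf12 changed sign, with 0.28 and -0.05, and its second probe gave -0.06 and -0.20, so its direction depends on the probe. Neuronal, glial and neural crest markers mostly had ratios of the same sign as Fgf13. Of 16 such markers, 12 were dimmer on both arrays and 1 brighter, against 19.8% and 19.9% of all genes. The median log2 ratio of these markers was -0.51. Their summed intensity was 25265 and 26301 in labelled Smad4cKO, against 36303 and 29741 in labelled control. All 16 were measured. Their part in the ratio of Fgf13 was not tested.

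The receptors divided by gene. Fgfr3, known for restraining bone growth, had 5416 and 5687 in labelled Smad4cKO, against 3676 and 3440 in labelled control. Its log2 ratios were 0.56 and 0.73 (mean 0.64, SE 0.13, n = 2, limma adjusted p = 0.282), or 1.56-fold. A second Fgfr3 probe, at chr5:34077856-34078090 (mm9) and apart from the first at chr5:34079649-34079708, gave 0.69 and 0.64, past 1.5-fold on both arrays. With the mean of its probes Fgfr3 passed the 1.5-fold rule.

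Fgfr4, a receptor prominent in liver and developing skeletal muscle, had 3190 and 3398 in labelled Smad4cKO, against 2177 and 1882 in labelled control. The log2 ratios were 0.55 and 0.85 (mean 0.70, SE 0.14, n = 2, limma adjusted p = 0.275), or 1.63-fold, and a second Fgfr4 probe gave 0.51 and 0.73. From processed signals the log2 ratios of Fgfr4 were 0.61 and 0.87, and it passed the 1.5-fold rule. Fgfr2, the epithelial receptor of FGF7 and FGF10, had 21878 and 20989 in labelled Smad4cKO, against 14845 and 17710 in labelled control. Its log2 ratios were 0.56 and 0.25 (mean of 0.40, with SE 0.15, n = 2, and limma adjusted p = 0.821), while its probe with 10 spots per array gave 0.28 and 0.46. These Fgfr2 probes share 42 of their 60 bases, and the larger ratio lay on array 1 with the first probe and on array 2 with the second. The Smad4cKO channel was the brighter on both arrays for Fgfr2, Fgfr3 and Fgfr4, as for 19.9% of all genes.

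Fgfr1, the main receptor of mesenchyme, had log2 ratios of -0.12 and -0.14 (mean of -0.13, with SE 0.13, n = 2, and limma adjusted p = 1), with 13348 and 13709 in labelled Smad4cKO, against 14540 and 15153 in labelled control. Its other probes gave -0.06 and -0.07 in one case and -0.21 and 0.15 in the other. Fgfrl1, a receptor that lacks the kinase domain, gave 0.21 and 0.10. The difference between Fgfr1 and the other receptors was not tested.

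Markers of urothelium, which makes FGFR2, had mixed ratios. Of 16 such markers, 6 were brighter on both arrays, against 19.9% of all genes, and 1 was dimmer, against 19.8%. The other 9 markers changed sign, against 60.3% of all genes, and the median of the 16 was 0.09. Their summed intensity was 245696 and 213650 in labelled Smad4cKO, against 194157 and 221030 in labelled control, so it was higher in Smad4cKO on array 1 and lower on array 2. All 16 urothelium markers were measured, among them Cdh1 (0.24 and 0.28), Upk3a (-0.17 and -0.45), which was the marker dimmer on both arrays, and Upk3b (-1.06 and 0.16) and Krt19 (0.53 and -0.20), which changed sign. Smooth muscle markers were brighter in labelled Smad4cKO on both arrays in 8 of 8 genes, against 19.9% of all genes. The smooth muscle markers had a summed intensity of 77064 and 97886 in labelled Smad4cKO, against 49396 and 45657 in labelled control. Of 6 measured skeletal muscle markers 4 were dimmer on both arrays and 2 brighter, against 19.8% and 19.9% of all genes. The skeletal muscle markers had sums of 3022 and 3150 in labelled Smad4cKO, against 3632 and 3595 in labelled control. Ckm and Myf5 were not well above background. The part of any of these cell types in the receptor ratios was not tested.

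The feedback inhibitors of FGF signalling had small or mixed ratios. Of 7 genes 6 could be tested, 2 of them brighter on both arrays, 1 dimmer and 3 with a changed sign. Of all genes 19.9% were brighter on both arrays, 19.8% were dimmer and 60.3% changed sign. The median of the 6 was 0.08 against 0.0047 for all genes. Spry1, the Sprouty gene best known in the ureteric bud, had 3151 and 4032 in labelled Smad4cKO, against 4038 and 2704 in labelled control. The control channel was higher on array 1 and the Smad4cKO channel on array 2, with log2 ratios of -0.36 and 0.58 (mean 0.11, SE 0.23, n = 2, limma adjusted p = 1). The phosphatase gene Dusp4, whose product inactivates ERK in the nucleus, gave -0.23 and 0.32. Dusp6, the ERK-specific phosphatase of the cytoplasm, gave -0.14 and 0.10. Spry2 gave 0.06 and 0.32 and Spred1 -0.03 and -0.18. Spred1 has a second probe that changed sign, with -0.33 and 0.27.

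Spred2 was well above background in labelled Smad4cKO on both arrays and in labelled control on neither, so it was tested only through the brighter group. Its intensities were 155 and 146 in labelled Smad4cKO, against 141 and 132 in labelled control. The measured ratio, with the offset of 50 included in these dim intensities, was 1.1-fold (limma adjusted p = 1), with the control channels not well above background. From processed signals the log2 ratios of Spred2 were 0.32 and 0.50. Spred2 is counted among the 12 of 29 genes, and the 2 feedback inhibitors, that were brighter on both arrays. Spry4 was well above background in 1 channel, the labelled control of array 1, and was not tested.

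All 3 ETS factors were tested. Etv1 had 19319 and 20391 in labelled Smad4cKO, against 14252 and 17733 in labelled control, and its log2 ratios were 0.44 and 0.20 (mean 0.32, SE 0.14, n = 2, limma adjusted p = 1). A second Etv1 probe gave 0.16 and 0.29. Etv4 changed sign, with 0.37 and -0.21, as did its second probe with 0.11 and -0.07. Etv5 gave 0.20 and 0.04. Kidney and nephric markers, among which Ret is a known activator of Etv4 and Etv5, had a median of -0.21. Of 12 such markers 7 were dimmer on both arrays and 1 brighter, against 19.8% and 19.9% of all genes. Ret gave -1.45 and -0.33 and Gdnf -1.751 and -2.145, while Osr1, the marker brighter on both arrays, gave 0.288 and 0.3288. The summed intensity of the kidney and nephric markers was 80930 and 87571 in labelled Smad4cKO, against 89851 and 91492 in labelled control. All 12 were measured, and their part in the Etv ratios was not tested.

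Other genes of the pathway were read from lists of coreceptors and modulators, RAS and ERK transduction genes and further ERK response genes. Limma called 0 of them and the 1.5-fold rule held 0 in either direction, against 0.49% and 0.523% of all genes. Among 19 coreceptors and extracellular modulators tested of 20, 3 were brighter on both arrays and 6 dimmer, against 19.9% and 19.8% of all genes. At an unadjusted p under 0.05, which held 2.14% of all genes brighter and 2.97% dimmer, the list had 0 brighter and 2 dimmer genes, Sulf2 (-0.49 and -0.69), which removes sulphate from heparan sulphate, and the glypican gene Gpc1 (-0.38 and -0.34), both chosen after their values were seen. The coreceptor gene Klb was not well above background. Among 22 transduction genes tested of 23, 16 changed sign, against 60.3% of all genes, the median was 0.00029 and the means lay between -0.19 and 0.17. Mapk3, which encodes ERK1, gave 0.16 and 0.19.

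Of 17 further ERK response genes tested, 3 were brighter on both arrays, 3 were dimmer and 11 changed sign, against 60.3% of all genes with a changed sign. The list had a median ratio of -0.17 on array 1, against 0.26 for array 2. The immediate early genes Fos (-1.13 and 0.62) and Junb (-0.74 and 0.64) passed 1.5-fold in opposite directions, and Egr1 gave -1.01 and 0.43. Spry1, Dusp4 and Dusp6 have the same order of signs as these genes, and Etv4 has the opposite one. Array 1 and array 2 differ in sex, dye orientation and embryos at once, and these cannot be told apart. Among erythroid markers, Hba-a1 gave -0.86 and 0.94 and its partner globin gene Hbb-bt gave -0.98 and 0.95, so both changed sign the way Fos did. Of the other 5 erythroid markers measured 4 were dimmer on both arrays and 1 was brighter, against 19.8% and 19.9% of all genes. The erythroid markers summed to 235303 and 373110 in labelled Smad4cKO, against 429044 and 201257 in labelled control, and their part in these ratios was not tested. The summed intensities of the ERK response list were 170669 and 196763 in labelled Smad4cKO, against 206144 and 152469 in labelled control.

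**Figure D3:**
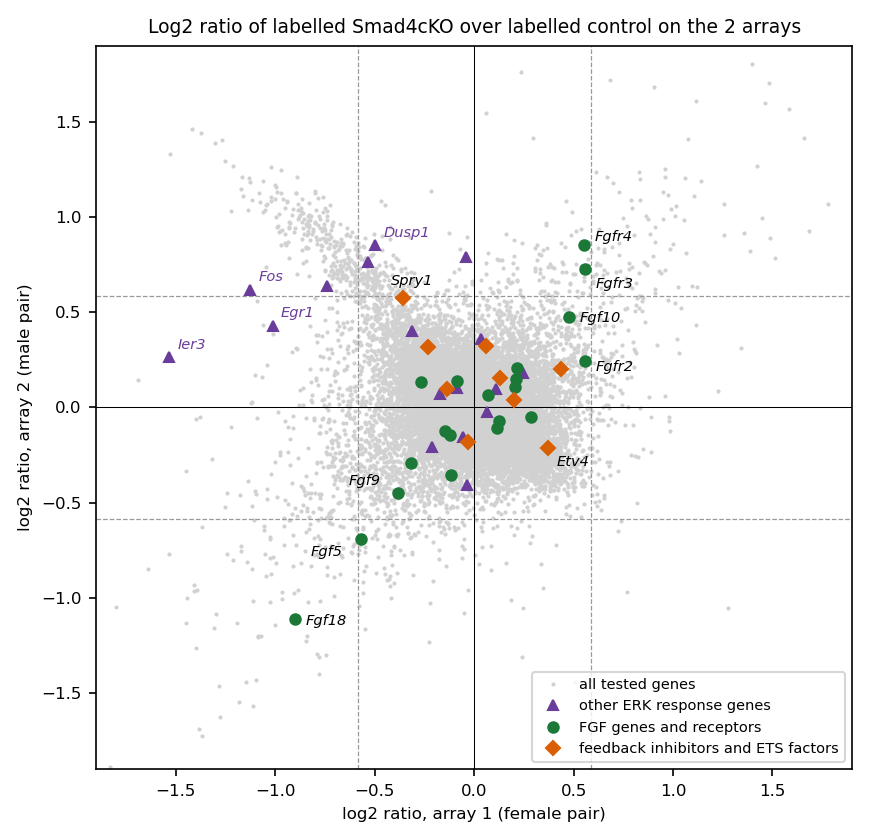
Log2 ratio of labelled Smad4cKO over labelled control on array 1 (x axis) and array 2 (y axis) for all tested genes in grey, FGF genes and receptors as circles, feedback inhibitors and ETS factors as diamonds and further ERK response genes as triangles, with 13 genes outside the axes. Fgf18 lies at lower left and Fgfr3 and Fgfr4 at upper right, while Fos, Egr1 and Spry1 lie at upper left with opposite signs.

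Across the 29 genes the ratios of the arrays correlated at Pearson's r = 0.691 and Spearman's rho = 0.543, and at 0.572 and 0.492 without Fgf18. Across all 21238 tested genes the values were -0.0698 and -0.203. These are descriptions across genes, which share the same 4 RNAs and are not independent replicates, and a bias fixed to a dye lowers the correlation in this design. For 12 genes more than 1 probe could be tested. In 11 of them the mean ratios of the probes had the same sign, and the largest spread was 0.25, for Fgf12. Among the 4 probes with 10 spots, the SD between spots of an array was 0.023 to 0.093, below the difference between the arrays for Fgf2, for the second Fgfr2 probe and for the second Fgf12 probe, and above it for Fgf10.

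**Figure D4:**
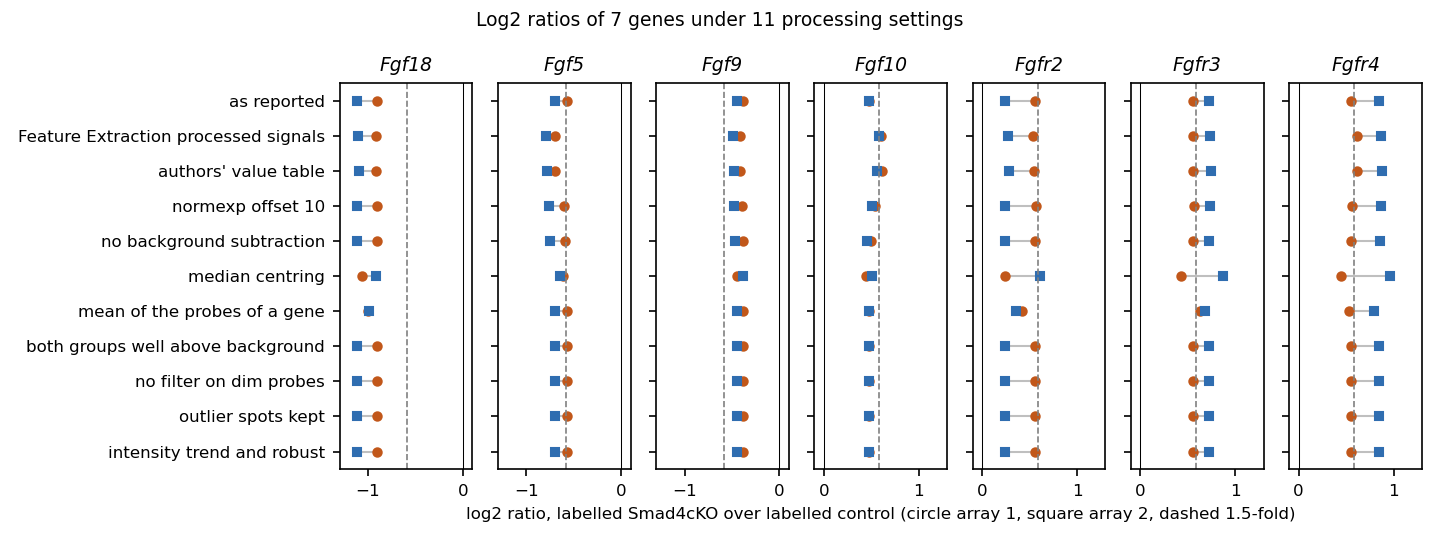
Log2 ratios of 7 genes on array 1 (circles) and array 2 (squares) under 11 processing settings, with 1.5-fold dashed. The signs of all 7 stay the same under each setting, and for Fgf5, Fgf10, Fgfr2, Fgfr3 and Fgfr4 an array's point crosses the 1.5-fold line under some setting.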

How the data were processed

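RNA of 2 Smad4cKO and 2 control samples (200 ng per channel) was compared on 2 arrays of 1 slide. Per the file headers, the deposited scanner output gives each spot's mean, background and processed intensity in both colours. The submitters' processing notes name Agilent Feature Extraction, version 10.7.3.1. The authors' deposited table holds a signed fold (ratio) between the channels, made with software not given in the sources used here. Its columns correlated with the processed ratios at -0.777 and -0.768, and their median is 1.

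Mean signals were background-corrected (normexp, offset 50) and loess-normalized within arrays (limma 3.58.1, R 4.3.3), with 1377 control spots at weight 0 in the loess fit. Outlier spots, 237 on array 1 and 221 on array 2, stayed in that fit. They were left out when replicate spots were averaged. Testing required a probe to exceed background clearly, by the scanner's call, on each array in at least 1 genotype (26670 of 39429, among them 43 of the 56 FGF probes). Each gene took its brightest such probe. Levels are the intensities of the normalized channels, offset included. Ratios were tested against 0 (lmFit, eBayes, Benjamini-Hochberg adjustment over 21238 genes, 1 residual and 4.89 prior degrees of freedom), so the SE rests mostly on the spread pooled over genes. The fit was tested on simulated data. Signals of 2 arrays limit the precision. The alternatives covered the background correction, the normalization, the dim-probe filter, the probe rule, outlier spots, empirical Bayes and single arrays. Every gene of the FGF rule is accounted for; those outside 1.5-fold that are given in full were chosen after their values were seen. Pathway genes past limma or the 1.5-fold rule were to be named, and the other pathway and marker genes named were picked with their values known. The genes and lists were chosen with earlier results of these data known.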

Additional observations from a re-analysis of the deposited data

Results flagged for a closer look

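The log2 ratio of Spry1, the Sprouty feedback inhibitor of the ureteric bud, had opposite signs in the female pair (array 1) and the male pair (array 2), with a difference between them of -0.93 on the log2 scale, more than 1.5-fold. It was noted because the arrays moved in opposite directions, as they did for 60.3% of all tested genes. The difference was not tested, since each sex is 1 array, and sex, dye orientation and embryos change together.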

How the results depend on the processing

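Of the ratios of the 29 genes recalculated from both arrays, 1 changed direction: Fgf12, at -0.00498 with the mean of its probes. Another 7, of Fgf5, Fgf10, Fgf18, Fgfr3 and Fgfr4, came under limma's threshold and the other 281 kept both sign and call. On a single array, where there is no test, the sign of 9 genes turned on 1 array, among them Spry1, Dusp4 and Etv4. The number of genes brighter by the 1.5-fold rule, 0 as reported, was 1 from processed signals and from the authors' table (Fgfr4), and 1 with probes averaged per gene or each tested on its own (Fgfr3). Of all genes the rule held 0.49% brighter as reported, 0.866% from processed signals and 0.833% from the authors' table. It held 0.48% with probes averaged and 0.454% of probes on their own. The number dimmer, 1 as reported, was 2 (Fgf5 added) from processed signals, the authors' table, normexp offset 10, no background subtraction and median centring, and 0 at 2-fold. Of all genes the rule held 0.523% dimmer as reported. In the settings that added Fgf5 it held 0.937%, 0.866%, 0.711%, 0.565% and 0.466%, in the order given. Limma's dimmer count, 0 as reported, was 1 (Fgf18) from processed signals and the authors' table. Limma called 0.763% and 0.363% of all genes dimmer there, against 0.00471% as reported. With a robust prior variance that followed intensity the dimmer count was 2 and the brighter count 3. That setting called 1.4% of all genes brighter and 1.92% dimmer. Leaving out an array, with no test, gave 0 to 2 brighter and 1 to 2 dimmer genes, and 0 to 5 brighter and 1 to 4 dimmer pathway list genes. The share of all genes on a single array is not given here. Causes were not tested. No further pairing was added, because each array's ratio, which was tested against 0, already pairs the samples. Signal over background limits Fgf2 and Spred2 and the 8 genes not tested.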
